A study of Mus musculus with 6 samples.

Results

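The genes described are the semaphorins of classes 3 to 7, their plexin and neuropilin receptors, the Eph receptors with their ephrin ligands, and the netrin, UNC5, SLIT and ROBO genes, in mouse bone marrow mesenchymal stem cells with and without RIOK3 knockdown. They were chosen by symbol among the protein-coding rows of the deposited count table, with no use of measured values in the choice. That table is named by its authors as one of expressed genes, so family members not in it are not described here. The rule took 57 of the 22030 genes in the table, 15349 of which are protein-coding. The 57 are 19 semaphorins (7 of class 3 and 12 of classes 4 to 7), 8 plexins, 2 neuropilins, 9 Eph receptors (5 EphA and 4 EphB), 8 ephrins (5 ephrin-A and 3 ephrin-B), 4 netrins, 3 UNC5 receptors, 3 SLIT ligands and Robo2.

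These genes encode cell-contact and short-range signals that were first known for steering growing axons and that many other cells use to attract, repel or sort their neighbours. Secreted class 3 semaphorins act through neuropilins, which bind the ligand, and class A plexins, which carry the signal into the cell, while most membrane-bound semaphorins bind plexins without a neuropilin. Ephrins are tethered to the membrane and signal with Eph receptor kinases in both directions between touching cells, and netrins and SLITs are secreted ligands of UNC5 and ROBO receptors. In mouse bone, Sema3a, the pair Ephb4 and Efnb2, and Sema4d with Plxnb1 are known for signals between bone-forming and bone-resorbing cells.

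Polyadenylated RNA of the cells was sequenced in 6 libraries, 3 from RIOK3 knockdown cells (titled siRIOK3) and 3 from control cells (titled siNC, genotype label WT). The design text speaks of stable lines made with lentivirus and also of a knockout, so which agent lowered RIOK3, and whether a line is 1 clone, are not settled by the labels. The labels do not say whether replicates are separate cultures, so the p-values speak only of the spread between these libraries, which may be technical. The libraries held 28327612 to 32569544 counts. Riok3, an atypical kinase gene of the RIO family on chromosome 18, was at 33.6 ± 3.12 CPM in knockdown libraries and 157 ± 31.1 CPM in control libraries (SD, n = 3 each), a log2 fold change of −2.23 (SE 0.18, adjusted p = 0.000127 by the quasi-likelihood test of edgeR).

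Here CPM is the usual count scaled to library size, with TMM factors, a fold change is knockdown over control, and a gene is called at an adjusted p under 0.05 over all 13067 genes tested. Of the 17 mesenchymal marker genes present, 16 were tested, of which 7 were higher and 7 lower in the knockdown, and their summed level was 5363 to 5556 CPM in knockdown and 4684 to 5090 CPM in control libraries. Fn1 and Vim were abundant. Of the markers of marrow stroma, Pdgfra (49.2 CPM in knockdown, 94.8 CPM in control), Prrx1 (45.5 and 93.4 CPM), Vcam1 (20.9 and 56.9 CPM) and Ly6a (22.5 and 13.1 CPM) were expressed. With the GC trend removed the log2 fold change of Prrx1 turned from −1.04 to 0.48, called higher (edgeR adjusted p = 0.0150). Vcam1 went from −1.44 to −0.45, Pdgfra from −0.95 to −0.67 and Ly6a from 0.78 to 1.01, all still called. With GC content from the longest transcript Prrx1 was at −0.05 and Vcam1 at 0.30, both uncalled. Thy1 (0.763 CPM in knockdown, 0.899 CPM in control) and Lepr (0.0612 and 0.331 CPM) were near 0. Of 8 macrophage markers Cd68 made nearly all of a sum of 46.6 to 51.7 CPM in knockdown and 26.7 to 43.2 CPM in control libraries, and Ptprc, Csf1r and Itgam averaged at most 0.333 CPM in either group. The sums were 3.79 to 5.17 CPM in knockdown and 2.95 to 3.77 CPM in control for 5 osteoclast markers, and 1.32 to 1.55 and 1.65 to 2.23 CPM for 8 neural and Schwann cell markers. For 8 endothelial markers they were 17.9 to 20.0 CPM in knockdown and 10.03 to 12.6 CPM in control, with Pecam1 and Cdh5 at most 0.254 CPM on average. Of the 5 endothelial markers tested 2 were called higher, Vwf (7.02 CPM in knockdown, 3.16 CPM in control) and Eng (3.38 and 1.80 CPM), and neither with the GC trend removed. Smooth muscle and pericyte markers summed to 876 to 907 CPM in knockdown and 493 to 678 CPM in control, mostly Acta2, which was called higher. The part of these marker shifts in the results below was not tested, and in bulk RNA fewer cells of a type and less RNA per cell cannot be told apart.

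Of the 57 guidance genes, 42 had enough counts to be tested. In the knockdown libraries 15 of these 42 were called higher and 9 lower, which is 57.1% called, against 48.0% of all tested genes (21.1% higher and 26.8% lower). The higher genes were the semaphorins Sema3b, Sema3f, Sema4c and Sema4g, the plexins Plxnb1, Plxnb2 and Plxnd1, the receptors Ephb3, Ephb4, Ephb6 and Unc5b, and the ephrins Efna1, Efna2, Efna3 and Efnb1. The lower genes were Sema3a, Sema3c, Sema3e, Plxna2, Nrp1, Nrp2, Epha7, Efna5 and Slit2. At least 2-fold changes numbered 9 higher and 8 lower, against 6.67% and 19.2% of all genes tested. The knockdown and control libraries did not overlap in CPM for 30 of the 42 genes, 21 with the knockdown higher and 9 with it lower, against 62.1% of all genes (30.8% and 31.3%). The median log2 fold change of the 42 was 0.47, against 0.01 over all genes tested. Scaling by library totals alone moved the median of all genes to 0.26 and that of the guidance genes to 0.72, and upper-quartile scaling moved them to 0.21 and 0.68.

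**Figure D1:**
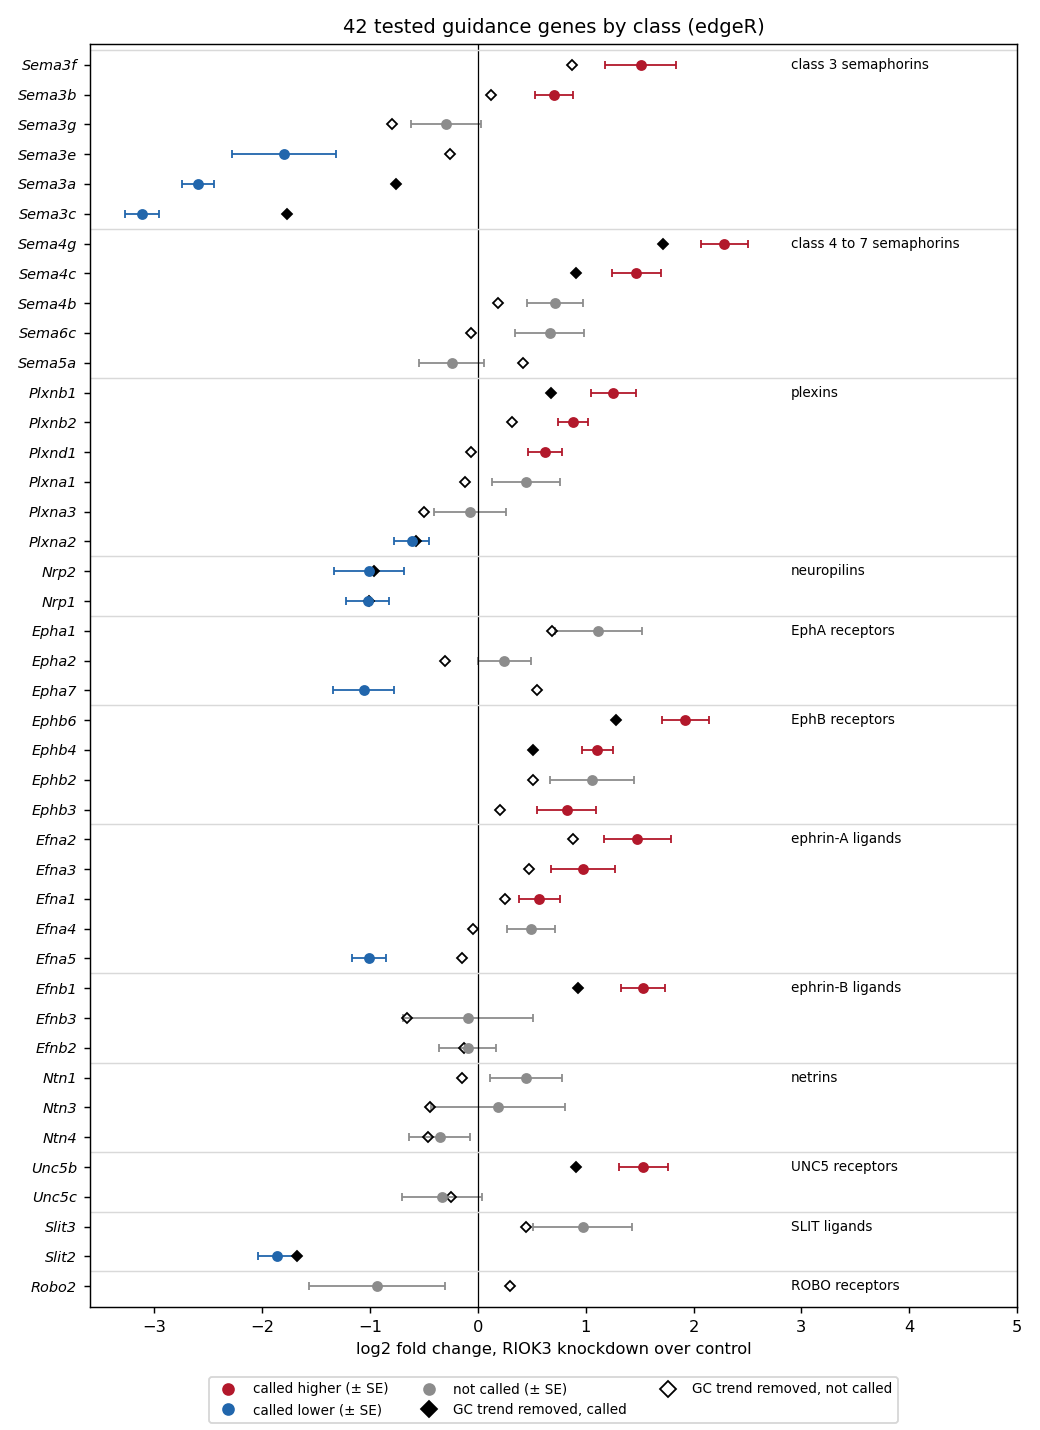
Log2 fold change, RIOK3 knockdown over control, of the 42 tested guidance genes by class, with the SE as bars and red, blue or grey for called higher, called lower and not called. Diamonds give the value with the GC trend of the transcripts removed, filled where still called: of the red and blue points 7 of 15 and 6 of 9 keep a filled diamond, and among the called genes Epha7 and Plxnd1 cross 0.

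The direction of change went with the base composition of the transcripts, as it did across all genes. Transcript GC content, read from 1 reference transcript per gene, had a median of 58.2% (53.2 to 60.8%) in the 15 higher genes, 44.8% (40.8 to 50.01%) in the 9 lower genes and 56.7% in the 18 not called. Across the 42 genes it correlated with the log2 fold change at a Spearman coefficient of 0.76, and at 0.70 across 13043 genes, as a description over genes that share the same libraries. The genes of highest GC content, the top 20% with 56.0 to 75.9%, held 25 of the 42, of which 14 were higher and none lower, where 48.1% of all genes in that range were higher. The bottom 20% (31.9 to 44.7%) held 5, of which 4 were lower, where 75.4% of all genes in that range were lower. The difference lay in the coding part too: the median GC content of coding sequences was 58.6% in higher and 48.9% in lower genes, and that of the third codon position, which is free to vary in most codons, was 68.8% and 54.2%. Stretches of 120 bases from the middle of the coding sequence show what these percentages look like in the most raised and most lowered semaphorins and in Ephb6, from GENCODE M21 transcripts of build GRCm38, with G and C in capitals.
Sema4g (chromosome 19, coding bases 1195 to 1314 of 2511): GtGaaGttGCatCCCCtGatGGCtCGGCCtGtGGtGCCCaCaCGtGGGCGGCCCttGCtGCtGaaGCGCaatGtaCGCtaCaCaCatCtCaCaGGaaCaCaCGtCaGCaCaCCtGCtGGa
Ephb6 (chromosome 6, coding bases 1462 to 1581 of 3042): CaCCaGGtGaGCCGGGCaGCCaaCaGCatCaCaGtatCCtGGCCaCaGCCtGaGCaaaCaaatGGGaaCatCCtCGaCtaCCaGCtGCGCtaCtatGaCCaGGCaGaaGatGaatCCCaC
Sema3a (chromosome 5, coding bases 1099 to 1218 of 2316): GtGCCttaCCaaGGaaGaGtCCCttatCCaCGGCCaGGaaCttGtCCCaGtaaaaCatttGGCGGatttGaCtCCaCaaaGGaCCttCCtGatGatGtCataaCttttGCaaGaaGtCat
Sema3c (chromosome 5, coding bases 1066 to 1185 of 2253): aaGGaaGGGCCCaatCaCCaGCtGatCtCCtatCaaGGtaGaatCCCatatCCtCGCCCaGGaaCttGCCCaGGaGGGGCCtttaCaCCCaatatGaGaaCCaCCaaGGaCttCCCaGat
These stretches held 60.0% G and C in Sema4g, 55.8% in Ephb6, 45.8% in Sema3a and 52.5% in Sema3c, whose whole transcript was at 42.7%.

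When each library's trend on GC content was removed, 7 of the 15 higher and 6 of the 9 lower guidance genes remained called in the same direction, none was called in the opposite one, and the 18 others stayed uncalled. With that correction 31.6% of all genes were called (16.3% higher, 15.2% lower), and the median log2 fold change was 0.04 for guidance genes and 0.03 for all genes. The genes that kept their call were Sema4c, Sema4g, Plxnb1, Ephb4, Ephb6, Efnb1 and Unc5b, higher, and Sema3a, Sema3c, Plxna2, Nrp1, Nrp2 and Slit2, lower. With GC content taken from each gene's longest transcript 11 guidance genes were called, 6 higher and 5 lower, where 32.5% of all genes were (17.0% and 15.6%), and with transcript length corrected too 14 were, 8 higher and 6 lower, where 39.6% of all genes were (21.5% and 18.0%). The 14 hold 12 genes called without correction, with Sema5a, higher, and Sema3g, lower, which were not. Of the 24 genes, 8 were called in the same direction under every alternative that tested them, which are Sema4c, Sema4g, Ephb6, Efnb1 and Unc5b, higher, and Sema3a, Sema3c and Slit2, lower. The library trend on GC content separates the groups without overlap. Composition and knockdown therefore cannot be told apart for any gene, including those that kept their call. The log2 fold change of Riok3 itself moved from −2.23 to −1.20 with the trend removed. Values with the trend removed are given beside many of the results.

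**Figure D2:**
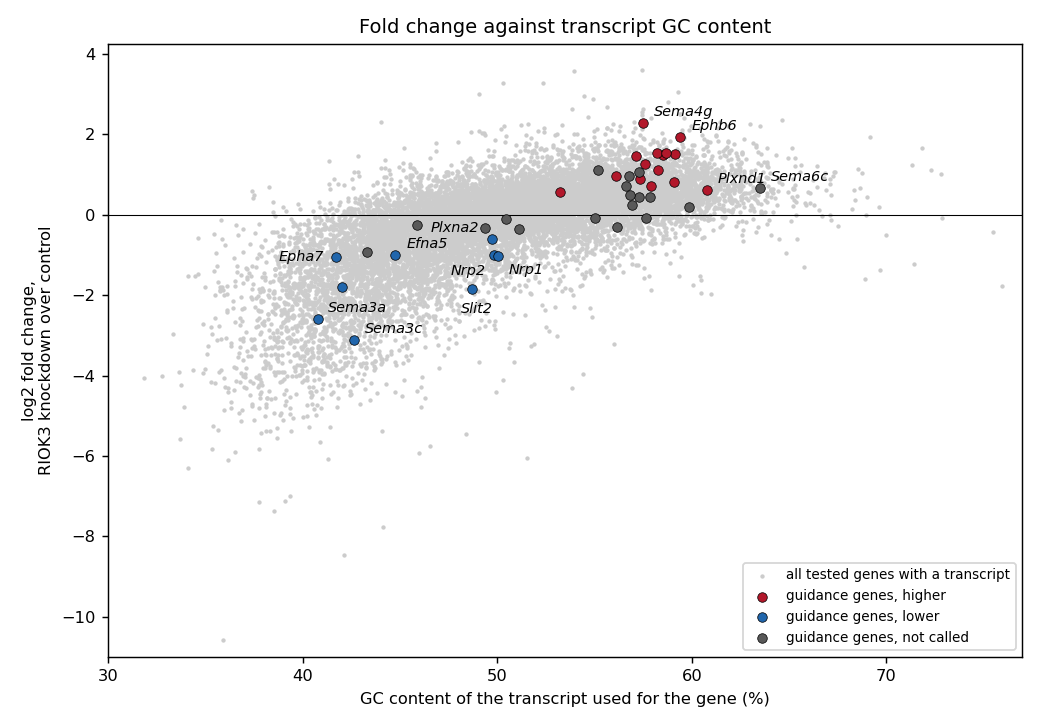
Log2 fold change, RIOK3 knockdown over control, against the GC content of the reference transcript (%) for all tested genes with a transcript (grey) and for the guidance genes (red higher, blue lower, dark grey not called). The red points sit between 53.2 and 60.8% GC and the blue points between 40.8 and 50.01%.

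Class 3 semaphorins, the secreted ligands, changed in opposite directions in the knockdown. Of 7 members 6 were tested, 2 of them higher (Sema3b, Sema3f) and 3 lower (Sema3a, Sema3c, Sema3e). Sema3c (ENSMUSG00000028780.14, chromosome 5), a ligand of both neuropilins, was at 2.58, 2.49 and 2.77 CPM in knockdown replicates 1, 2 and 3, and at 24.5, 24.0 and 19.5 CPM in control replicates 1, 2 and 3. The groups stand far apart, the lowest control library being several times above the highest knockdown library. Its level was 8.66-fold lower (log2 fold change −3.11, SE 0.16, edgeR adjusted p = 2.82e-05), and −1.77 after the GC correction (adjusted p = 0.00103). Sema3a (ENSMUSG00000028883.20, chromosome 5), an axon repellent that in mice favours bone formation over resorption, was at 10.9, 9.46 and 10.9 CPM in the knockdown replicates and 68.2, 54.9 and 65.4 CPM in the control replicates. All knockdown libraries were again below all control libraries, by 6.04-fold on average (log2 fold change −2.59, SE 0.15, edgeR adjusted p = 3.35e-05). With the GC trend removed the log2 fold change of Sema3a was −0.76 (edgeR adjusted p = 0.00411), so its size depended on that correction more than that of Sema3c.

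The other lower ligand, Sema3e, binds Plxnd1 without a neuropilin and was scarce, with 4, 10 and 7 counts in the knockdown libraries and 34, 14 and 19 in the control libraries. Its log2 fold change was −1.79 (SE 0.48, edgeR adjusted p = 0.0197), which was −0.26 and not called with the GC trend removed. Its call was also lost without knockdown replicate 1 (−1.51), knockdown replicate 3 (−1.81) or control replicate 1 (−1.39), with edgeR adjusted p-values of 0.0745, 0.0645 and 0.0680.

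Sema3b (chromosome 9) was the class 3 gene of highest FPKM in the knockdown, with 25.3, 22.6 and 21.5 CPM there and 11.01, 16.1 and 15.4 CPM in control replicates. The groups did not overlap, with a log2 fold change of 0.71 (SE 0.18, edgeR adjusted p = 0.0153), which the GC correction brought to 0.13, uncalled (adjusted p = 0.560). Without knockdown replicate 1 or 2 it was 0.64 and 0.73, with edgeR adjusted p-values of 0.0664 and 0.0513. Sema3f (chromosome 9), a Nrp2 ligand, was at 2.05, 2.43 and 2.45 CPM in knockdown and 1.01, 0.431 and 0.977 CPM in control libraries. Every knockdown library was above every control library, with a log2 fold change of 1.51 (SE 0.33, edgeR adjusted p = 0.00852) that was 0.88 and not called with the GC trend removed (adjusted p = 0.0936). Sema3g was not called (log2 fold change −0.29), nor with the GC trend removed (−0.79, edgeR adjusted p = 0.108). It was called lower with transcript length corrected too (−0.89, edgeR adjusted p = 0.0426). The GC correction without control replicate 2 also called it lower (−0.99, edgeR adjusted p = 0.0348).

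Of the 12 membrane-bound semaphorins of classes 4 to 7 in the table only 5 had enough counts, and the 2 called, Sema4g and Sema4c, were higher in the knockdown. Sema4g (ENSMUSG00000025207.17, chromosome 19), a transmembrane ligand of Plxnb2 in mice, had the largest rise of all 42 genes. It was at 6.37, 6.43 and 6.12 CPM in the knockdown replicates and 1.58, 0.971 and 1.31 CPM in the control replicates, with no overlap and little spread in the knockdown. The level was 4.88-fold higher (log2 fold change 2.29, SE 0.21, edgeR adjusted p = 0.000235), and 1.71 on the log2 scale with the GC trend removed (adjusted p = 0.00196). Sema4c (chromosome 1), another transmembrane ligand of Plxnb2, was at 24.5, 24.8 and 20.3 CPM in knockdown and 8.29, 6.08 and 10.7 CPM in control libraries. The lowest knockdown library was above the highest control library, and the log2 fold change was 1.47 (SE 0.22, edgeR adjusted p = 0.00189), or 0.91 with the GC trend removed (adjusted p = 0.0177). Sema4b, Sema5a and Sema6c were not called, with log2 fold changes of 0.72, −0.24 and 0.67. Sema5a was called lower without control replicate 2 (−0.51, edgeR adjusted p = 0.0141) and Sema6c higher with library totals alone (0.92, adjusted p = 0.0434). With the GC trend removed these 2 turned sign, to 0.42 and −0.06, uncalled, and with transcript length corrected too Sema5a was called higher (0.78, edgeR adjusted p = 0.00616). Sema4b was called higher without control replicate 2 (0.52, edgeR adjusted p = 0.0180) and was at 0.19, uncalled, with the GC trend removed.

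**Figure D3:**
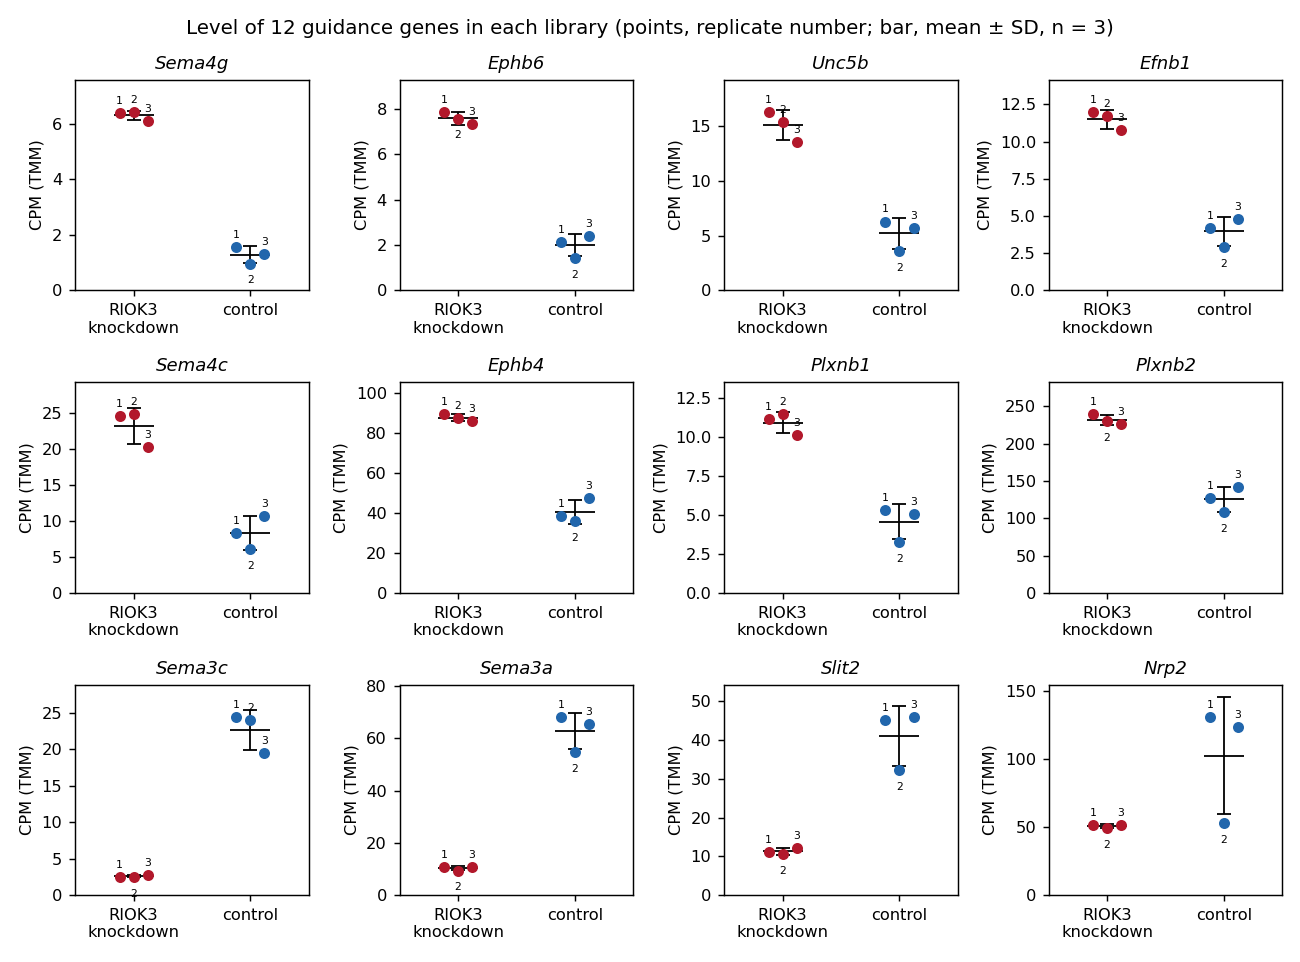
Level in CPM of 12 guidance genes in each library, 3 RIOK3 knockdown libraries (red) left of 3 control libraries (blue), numbered by replicate, with the mean and SD as bars. In 11 of the panels the groups stand clear of each other, and for Nrp2 control replicate 2, at 53.0 CPM, lies just above the knockdown libraries at 49.2 to 51.8 CPM.

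Among the plexins, the receptors that carry semaphorin signals into the cell, 6 of 8 were tested, 3 being higher (Plxnb1, Plxnb2, Plxnd1) and 1 lower (Plxna2). Plxnb2 (chromosome 15), the receptor of Sema4c and Sema4g, was at 239, 230 and 226 CPM in knockdown and 128, 108 and 141 CPM in control libraries. The groups did not overlap, with a log2 fold change of 0.88 (SE 0.14, edgeR adjusted p = 0.00194), which was 0.32 and not called with the GC trend removed (adjusted p = 0.115). Without control replicate 2 the GC-corrected value was 0.21 and called (edgeR adjusted p = 0.00136). Plxnb1 (chromosome 9), the Sema4d receptor, was at 11.1, 11.4 and 10.1 CPM in knockdown and 5.34, 3.27 and 5.09 CPM in control libraries, again without overlap. Its log2 fold change was 1.25 (SE 0.21, edgeR adjusted p = 0.00277), or 0.68 with the GC trend removed (adjusted p = 0.0477), and 0.66 and uncalled when GC content came from the longest transcript (adjusted p = 0.0519).

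Plxna1 (chromosome 6), a class A plexin that pairs with neuropilins, was at 235, 243 and 240 CPM in knockdown and 214, 90.2 and 223 CPM in control libraries. Control replicate 2 was far below the other 5 libraries, and the log2 fold change of 0.44 (SE 0.32) was not called (edgeR adjusted p = 0.285). Without control replicate 2 it was 0.13 (edgeR adjusted p = 0.0592), and after the GC correction too it turned to −0.44 and was called lower (adjusted p = 7.73e-07). Plxnd1, the Sema3e receptor, had a log2 fold change of 0.62, and Plxna2, another class A plexin, one of −0.61 (edgeR adjusted p = 0.0147 and 0.0184). After the GC correction they were −0.07, not called, and −0.58, called. The Plxna2 call was lost with library totals alone (−0.37, edgeR adjusted p = 0.109), upper-quartile scaling (−0.41, adjusted p = 0.0551) and the correction for GC content and length (−0.41, adjusted p = 0.188). With that trend removed and without control replicate 2, Plxnd1 was called lower (−0.22, edgeR adjusted p = 0.0413). Plxna3, a further class A plexin, was not called (log2 fold change −0.07, edgeR adjusted p = 0.878), but was called lower without control replicate 2 (−0.38, adjusted p = 0.0345), and at −0.81 after the GC correction too (adjusted p = 7.33e-05). In authors' FPKM, which allow levels of different genes to be compared, Plxnb2 (32.0 ± 0.729 in knockdown, 14.4 ± 2.23 in control) and Plxna1 (28.2 ± 0.665 and 17.2 ± 7.46) were the most abundant of all 57 genes in each group.

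Both neuropilins, the ligand-binding co-receptors of class 3 semaphorins, were called lower in the knockdown. Nrp2 (chromosome 1) was at 51.7, 49.2 and 51.8 CPM in knockdown replicates and 131, 53.0 and 123.5 CPM in control replicates. Control replicate 2 lay next to the knockdown libraries, and the log2 fold change was −1.01 (SE 0.32, edgeR adjusted p = 0.0357), or −0.96 with the GC trend removed (adjusted p = 0.0403). Without control replicate 2 it was −1.32 (edgeR adjusted p = 1.34e-11), and without any other single library the call was lost, with values of −1.01 to −0.80 and adjusted p of 0.0999 to 0.108. With library totals alone Nrp2 was not called either (−0.77, edgeR adjusted p = 0.0839). Nrp1 (chromosome 8) was at 3.79, 3.30 and 4.80 CPM in knockdown and 8.86, 6.79 and 8.46 CPM in control libraries. Its groups did not overlap, with a log2 fold change of −1.02 (SE 0.20, edgeR adjusted p = 0.00543), and −1.01 after the GC correction (adjusted p = 0.00653). That corrected value rests on the transcript chosen: with the longest transcript of the gene, at 41.9% GC in place of 50.01%, it turned to 0.35 and was not called (edgeR adjusted p = 0.141).

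All 4 EphB receptors in the table, from a family of kinases that mostly bind ephrin-B ligands, were tested, and Ephb3, Ephb4 and Ephb6 were called higher. Ephb6 (ENSMUSG00000029869.8, chromosome 6), a family member whose kinase domain is inactive, was at 7.86, 7.57 and 7.31 CPM in knockdown and 2.15, 1.44 and 2.39 CPM in control libraries. The knockdown libraries lay close together and far above the controls, with a log2 fold change of 1.92 (SE 0.22, edgeR adjusted p = 0.000523), or 1.28 with the GC trend removed (adjusted p = 0.00561). Ephb4 (chromosome 5), the Efnb2 receptor known from bone and vessels, was at 89.3, 87.6 and 85.9 CPM in knockdown and 38.4, 36.0 and 47.5 CPM in control libraries. It did not overlap either, with a log2 fold change of 1.11 (SE 0.14, edgeR adjusted p = 0.000898), and 0.51 after the GC correction (adjusted p = 0.0260). Ephb3 had a log2 fold change of 0.82 (edgeR adjusted p = 0.0422), which was 0.20 and not called with the GC trend removed. Ephb2 was scarce, at 0.964 ± 0.0540 CPM in knockdown and 0.463 ± 0.224 CPM in control libraries. It missed the threshold with a log2 fold change of 1.06 (edgeR adjusted p = 0.0589) but passed it with DESeq2 (1.05, adjusted p = 0.0471). It also passed in voom with quality weights, under upper-quartile or total scaling, and without control replicate 2 (1.44, edgeR adjusted p = 0.00808). Only 6 of the 19 alternatives that tested Ephb2 called it higher. The GC correction lowered its value to 0.51, uncalled (edgeR adjusted p = 0.341), and no composition alternative called it.

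Of the EphA receptors, which mostly bind ephrin-A ligands, 3 of 5 were tested and Epha7 alone was called. Epha7 (chromosome 4) was at 3.39, 1.95 and 1.90 CPM in knockdown and 5.87, 4.03 and 5.19 CPM in control libraries, lower without overlap. Its log2 fold change of −1.06 (SE 0.28, edgeR adjusted p = 0.0191) turned to 0.55 with the GC trend removed (adjusted p = 0.151), its transcript being at 41.7% GC. The call was also lost without knockdown replicate 2 (−0.92), knockdown replicate 3 (−0.90), control replicate 1 (−0.94) or control replicate 3 (−1.04). Epha2 (chromosome 4), the most abundant EphA gene, was at 16.2 ± 0.387 CPM in knockdown and 13.7 ± 4.44 CPM in control libraries. It was not called (log2 fold change 0.25, edgeR adjusted p = 0.436), but with the GC trend removed and without control replicate 2 it was called lower (−0.54, adjusted p = 0.000208). Epha1, at under 1 CPM in every library, was not called either (log2 fold change 1.12, edgeR adjusted p = 0.0541).

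Among ephrin-A ligands, which are held in the membrane by a lipid anchor, all 5 members were tested, with Efna1, Efna2 and Efna3 higher and Efna5 lower. Efna5 (chromosome 17) was at 5.66, 6.04 and 5.12 CPM in knockdown and 12.2, 9.60 and 12.1 CPM in control libraries. The groups were well apart, with a log2 fold change of −1.01 (SE 0.16, edgeR adjusted p = 0.00212), but with the GC trend removed it was −0.15 and not called (adjusted p = 0.433). Efna2 (chromosome 10), a ligand from osteoclasts in mice, was at 1.15, 1.68 and 1.90 CPM in knockdown and 0.436, 0.683 and 0.573 CPM in control libraries, without overlap. Its log2 fold change was 1.48 (SE 0.31, edgeR adjusted p = 0.00748), or 0.88 and uncalled with the GC trend removed (adjusted p = 0.0710). Efna1 (chromosome 3), the most abundant ephrin, was at 38.7, 37.3 and 36.5 CPM in knockdown and 19.1, 31.1 and 25.6 CPM in control libraries. The control libraries were spread but all lower, with a log2 fold change of 0.57 (SE 0.19, edgeR adjusted p = 0.0418), and 0.26 after the GC correction (adjusted p = 0.342). Leaving out any library other than control replicate 2 ended the call of Efna1 (0.40 to 0.60, edgeR adjusted p of 0.0829 to 0.123), and without control replicate 2 it was 0.75 (adjusted p = 1.05e-05). Efna3 had a log2 fold change of 0.97 (edgeR adjusted p = 0.0316), or 0.47 and uncalled with the GC trend removed, and Efna4 was not called (0.49).

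Of the 3 ephrin-B ligands, transmembrane proteins that can signal back into their own cell, Efnb1 was called higher. Efnb1 (ENSMUSG00000031217.9, chromosome X), whose loss in humans disturbs craniofacial bone, was at 11.998, 11.7 and 10.8 CPM in knockdown and 4.20, 2.91 and 4.82 CPM in control libraries. The lowest knockdown library exceeded the highest control library more than the controls differed among themselves. The level was 2.89-fold higher (log2 fold change 1.53, SE 0.21, edgeR adjusted p = 0.00112), and 0.93 on the log2 scale with the GC trend removed (adjusted p = 0.0138). Efnb2 (chromosome 8), the Ephb4 ligand, was at 34.5, 30.9 and 36.7 CPM in knockdown and 45.3, 22.3 and 41.5 CPM in control libraries. The knockdown libraries lay inside the control range, with a log2 fold change of −0.10 (SE 0.26, edgeR adjusted p = 0.784) that was 0.13 with upper-quartile scaling and 0.15 with library totals. Without control replicate 2 Efnb2 was called lower, at −0.35 (edgeR adjusted p = 0.00149). Efnb3, the third ephrin-B, was not called (log2 fold change −0.09, edgeR adjusted p = 0.911), nor was the ephrin-A ligand Efna4 (0.49, adjusted p = 0.102).

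None of the 3 tested netrins, secreted laminin-like ligands, was called with edgeR, none had an unadjusted p under 0.05, and DESeq2 and voom called neither Ntn1 nor Ntn4. Ntn1 (chromosome 11) was at 3.98, 4.36 and 4.41 CPM in knockdown and 3.89, 1.58 and 3.87 CPM in control libraries, with a log2 fold change of 0.44 (SE 0.33, edgeR adjusted p = 0.305). Without control replicate 2, the lowest of the libraries, it was 0.13, and with the GC trend removed as well −0.47, called lower (adjusted p = 0.0230). Ntn4 (chromosome 10), the netrin of highest mean FPKM, was at 1.71, 2.43 and 2.16 CPM in knockdown and 3.69, 2.34 and 2.02 CPM in control libraries. Its groups overlapped, and the log2 fold change was −0.35 (SE 0.28, edgeR adjusted p = 0.339), while that of Ntn3 was 0.19 (adjusted p = 0.821). The UNC5 receptor Unc5b (chromosome 10), a netrin receptor of vessel and stromal cells, was at 16.3, 15.3 and 13.6 CPM in knockdown and 6.28, 3.56 and 5.73 CPM in control libraries. The groups were far apart, with a log2 fold change of 1.53 (SE 0.23, edgeR adjusted p = 0.00168), or 0.91 with the GC trend removed (adjusted p = 0.0250). Unc5c was not called (log2 fold change −0.33).

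Slit2 (ENSMUSG00000031558.16, chromosome 5), a secreted repellent that binds ROBO receptors, was at 11.3, 10.5 and 12.2 CPM in knockdown and 45.1, 32.1 and 45.9 CPM in control libraries. Its level was lower in every knockdown library than in any control library, by 3.62-fold on average (log2 fold change −1.86, SE 0.18, edgeR adjusted p = 0.000276). With a transcript of 48.7% GC it moved little when the GC trend was removed (−1.67, edgeR adjusted p = 0.000423). With the longest transcript of the gene, at 45.5% GC, it moved further, to −1.26, and stayed called (edgeR adjusted p = 0.000772). Slit3, another SLIT ligand, was at 2.55, 1.71 and 1.87 CPM in knockdown and 0.403, 1.65 and 1.08 CPM in control libraries. Its groups stood barely apart, and its log2 fold change of 0.97 (SE 0.46) was not called (edgeR adjusted p = 0.120). Over all 6 libraries the GC correction lowered the Slit3 value to 0.44, still uncalled (edgeR adjusted p = 0.481). Without control replicate 2 Slit3 was called higher, at 1.46 (edgeR adjusted p = 0.00209), or 0.92 after the GC correction (adjusted p = 0.0324). Only 3 of the 19 alternatives that tested Slit3 called it higher. Robo2, the ROBO receptor in the table, was near the limit of the counts, with 11, 4 and 6 counts in knockdown and 19, 4 and 14 in control libraries. It was not called (log2 fold change −0.94, SE 0.63, edgeR adjusted p = 0.255), but was called lower without control replicate 2 (−1.33, adjusted p = 0.0408). With the GC trend removed Robo2 was at 0.29 (edgeR adjusted p = 0.728), and at −0.027 without control replicate 2 as well (adjusted p = 0.972), uncalled in each.

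Within several classes the mixture of ligands differed between the groups, as shares of the summed FPKM of the class in a library show. Sema3b made 75.8, 74.3 and 70.9% of class 3 semaphorin FPKM in knockdown replicates and 20.7, 30.7 and 29.0% in control replicates. Sema3a made 11.4 ± 0.821% of the class in knockdown and 40.9 ± 4.21% in control libraries, and Sema3c made 5.58 ± 0.530% and 28.6 ± 3.49% (SD, n = 3 each). The leading class 3 ligand was thus Sema3b in all 3 knockdown libraries and Sema3a in all 3 control libraries. Of ephrin-B ligand FPKM, Efnb1 made 39.7 ± 3.0% in knockdown and 18.0 ± 2.56% in control libraries, and Efnb2 the larger share in each, 59.0 ± 3.20% and 80.5 ± 2.68%. Slit3 made 42.2 ± 5.35% of SLIT ligand FPKM in knockdown and 10.2 ± 7.25% in control libraries, the rest being nearly all Slit2. That class was scarce, with a mean sum of 0.847 FPKM in knockdown and 1.58 FPKM in control, and Slit3 itself was not called. Shares of plexin FPKM overlapped between the groups for Plxnb2 (48.0 ± 1.09% in knockdown, 42.3 ± 8.07% in control), with control replicate 2 at 51.6%. Epha2 and Efna1 led their classes in every library, with 89.2 ± 1.58% of EphA FPKM in knockdown and 82.6 ± 3.09% in control, and with 79.5 ± 0.791% of ephrin-A FPKM in knockdown and 72.4 ± 4.69% in control. These shares were not corrected for GC content, in which the tested class 3 members range from 40.8 to 59.1%.

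**Figure D4:**
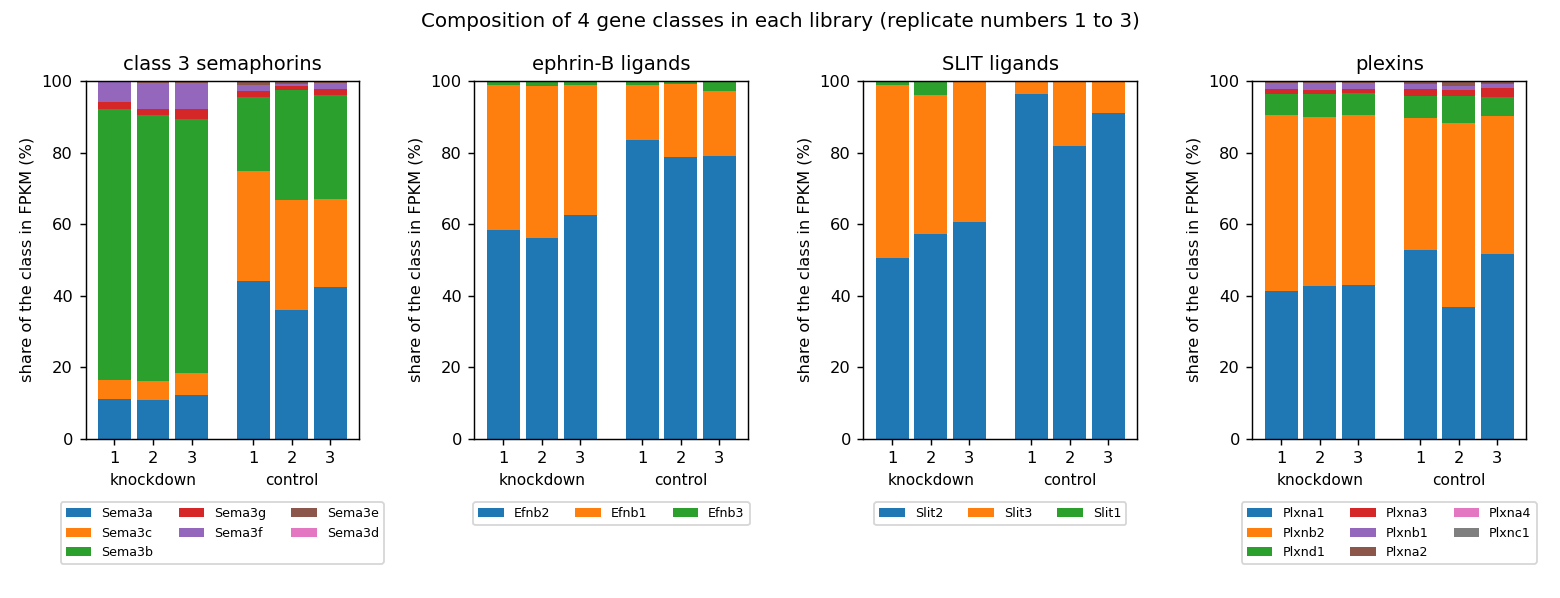
Share of the summed FPKM of its class (%) held by each member, stacked per library, with the 3 RIOK3 knockdown libraries left of the 3 control libraries in each panel. Sema3b takes over 70% of the class 3 bars in the knockdown and at most 30.7% in the controls. Of the plexin bars, Plxnb2 holds a larger share than Plxna1 in each knockdown library and in control replicate 2. Plxna1 holds the larger share in control replicates 1 and 3.

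The remaining 15 genes were below the filter on counts, with at most 18 counts in any library, and are given as counts with no test. They are Sema3d, Sema4a, Sema4d, Sema4f, Sema6a, Sema6b, Sema6d, Sema7a, Plxna4, Plxnc1, Epha4, Epha8, Ntn5, Unc5a and Slit1. Sema4d, the osteoclast ligand of Plxnb1, had 6, 4 and 7 counts in knockdown libraries and 3 counts in each control library. Plxnc1, the Sema7a receptor, had 10, 11 and 5 counts in knockdown libraries and 1, 0 and 0 in control libraries, and Sema7a itself had 3, 6 and 3 counts in knockdown and 3, 0 and 5 in control libraries. A count of 0 in a library allows up to 3 counts.

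The promoters of higher and lower guidance genes did not show the difference in composition that their transcripts did. RefSeq promoter windows of build GRCm38.p6, from 250 bases before to 50 after a gene's start, were found for 49 of the 57 genes. Their median GC content was 67.0% over 17 windows of higher genes and 66.7% over 10 windows of lower genes, against 52.7% over all 32851 windows. The windows of Sema4g, the gene with the largest rise, and of Sema3c, the gene with the largest fall, are shown because their transcripts differ in GC content and their promoters do not, with each GC box (GGGCGG on either strand) in capitals.
Sema4g (chr19:44989094-44989393, plus strand): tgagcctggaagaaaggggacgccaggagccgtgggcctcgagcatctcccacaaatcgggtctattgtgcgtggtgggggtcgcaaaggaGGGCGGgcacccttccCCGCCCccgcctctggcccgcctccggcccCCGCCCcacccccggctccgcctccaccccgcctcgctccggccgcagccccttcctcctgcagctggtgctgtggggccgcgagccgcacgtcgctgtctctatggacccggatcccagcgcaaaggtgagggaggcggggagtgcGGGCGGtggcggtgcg
Sema3c (chr5:17574566-17574865, plus strand): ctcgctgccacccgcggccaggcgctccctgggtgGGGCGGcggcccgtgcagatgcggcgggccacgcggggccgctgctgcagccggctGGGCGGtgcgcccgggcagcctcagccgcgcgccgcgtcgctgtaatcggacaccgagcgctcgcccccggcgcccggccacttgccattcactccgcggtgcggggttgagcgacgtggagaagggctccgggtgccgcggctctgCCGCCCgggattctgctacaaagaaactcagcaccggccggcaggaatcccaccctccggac
The window of Sema4g held 73.3% G and C with 4 GC boxes, and that of Sema3c held 75.7% with 3. A GC box, the motif read by SP family factors, was in a window of 12 of 13 higher and 8 of 9 lower genes, and of 40 of all 49 guidance genes, while 35.7% of all windows held it. The CCAAT box (CCAAT) was found for 15 of the 49 genes and in 37.4% of all windows, the TATA box (TATAAA) for 2 genes and in 13.6%, and the E-box (CACGTG) for 5 genes and in 7.15%. Both strands were searched, a gene counts if any of its windows matched, and a match is a description of letters, not of a bound site.

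Genes that work with these ligands and receptors were called in both directions. Of 35 tested semaphorin and plexin partners 6 were higher and 9 lower in the knockdown, of 27 Eph and ephrin partners 7 and 8, and of 24 netrin and SLIT partners 9 and 5, where 48.0% of all tested genes were called (21.1% higher and 26.8% lower). With the GC trend removed these counts were 6 higher and 4 lower, 1 and 4, and 5 and 1, where 31.6% of all genes were called (16.3% higher and 15.2% lower). They are not only calls that were kept. Cdc42 turned from called lower (−0.43) to called higher (0.94). Rap1b, Rac1, Rhoa and Neo1 were called higher with the trend removed and not called without correction, while Fes, Mical1, Gipc1 and Limk2 lost their call. The 1 higher Eph and ephrin partner was Nck1, called lower without correction. The median log2 fold changes without correction were 0.22, 0.08 and 0.08, against 0.01 over all genes. Met, a receptor kinase that associates with class B plexins, was at 18.9 ± 2.06 CPM in knockdown and 89.0 ± 6.79 CPM in control libraries, a log2 fold change of −2.23 (edgeR adjusted p = 4.97e-05), and −1.53 after the GC correction. Erbb2, another receptor kinase that associates with class B plexins, had a log2 fold change of 1.12 (edgeR adjusted p = 0.000551), or 0.56 with the GC trend removed, and both stayed called. Flt1, a VEGF receptor whose ligands also bind neuropilins, had −1.46, or −1.51 with the trend removed, and Rap1a, a small GTPase acted on by plexins, had −2.06, or 0.19 and uncalled. Rock1 and Rock2 of the same list fell further, at −4.73 and −3.20, or −2.69 and −1.62 with the trend removed, all called.

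Among Eph and ephrin partners, Rasa1, a Ras GTPase-activating protein bound by EphB receptors, was at 3.70 ± 0.110 CPM in knockdown and 53.9 ± 27.1 CPM in control libraries. Its log2 fold change was −3.86 (edgeR adjusted p = 0.000589), or −2.26 with the GC trend removed, and that of Yes1, a Src family kinase, was −3.63, or −1.82, all called. Adam10, a protease that sheds ephrins, had a log2 fold change of −1.58 (edgeR adjusted p = 0.000595) that was −0.08 and uncalled with the trend removed. Nck1, an adaptor of Eph receptors, had −1.67 and turned to 0.54, called higher (edgeR adjusted p = 0.0138). Of the netrin and SLIT partners, Flrt2, a ligand of UNC5 receptors, had −1.95 (edgeR adjusted p = 8.21e-05), or −0.39 and uncalled. Maged1, an UNC5 binding protein, had 0.98, or 0.60 with the trend removed, and Rgmb, a ligand of the netrin receptor family member neogenin, had 0.79, or 1.11, all called. Evl, an actin regulator of the Ena/VASP family, had 0.85, or 0.33 and uncalled.

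Control replicate 2 stood apart from the other control libraries, with Spearman correlations of 0.963 and 0.968 with them against 0.996 between those. Without it all 24 called guidance genes kept their call and direction, and 20 were higher and 13 lower among 44 tested, while 71.6% of all genes were called (35.1% and 36.5%). With it also left out of the fit with the GC trend removed, 12 guidance genes were called higher and 13 lower, and 61.5% of all genes were called (33.7% and 27.9%). Exons of 15 of the 57 genes overlap those of another gene in GENCODE M21, among them Ephb4, Plxnb1, Sema4c, Efna3 and Plxna1 with a gene on the opposite strand. Those of Nrp1, Ntn3, Plxnc1 and Sema4a overlap a gene on their own strand, a microRNA gene for Nrp1 and Tbc1d24 for Ntn3. How the counting treated strand is not stated in these sources, so reads of such pairs may have been split or shared.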

How the data were processed

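Per the labels' protocols, libraries were made from total RNA with a stranded mRNA kit and sequenced as paired-end reads on an Illumina NovaSeq. The submitters' processing notes name HISAT2, MultiQC and GRCm39 without versions. For the counting tool, strand setting and annotation release, no source used here gives a name. The authors deposited raw counts per gene for 22030 genes and FPKM for 21879 genes, with 1 column per library, grouped by title. FPKM values, scaled by the authors to gene length and library total, were used for class shares, for comparing genes and for alternatives.

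The deposited counts went into edgeR 4.0.16 (R 4.3.3): filterByExpr left 13067 genes (99.9% of counts), TMM scaling, and the robust quasi-likelihood test compared 3 knockdown with 3 control libraries without covariates, two-sided, with Benjamini-Hochberg adjustment over all tested genes. Each SE was derived from the F statistic and the log2 fold change. The script was tested on simulated data that held no GC trend and no outlying library. It called 61.2% and 66% of genes with true log2 fold changes of −1 and 1, and 95.8% and 100% at −2 and 2. Calls under a GC trend were not tested that way. Alternatives were DESeq2 1.42.0, limma 3.58.1 (voom with quality weights, and trend on log2(FPKM + 1) or log2(FPKM + 0.1)), other scalings and filters, the replicate block and each library left out. In the composition alternatives each library's loess trend (span 0.3) of log2 CPM on transcript GC content, or on GC content and length, entered edgeR as an offset for 13043 genes. GC content came from GENCODE M21 (GRCm38), an earlier build than the authors', from the transcript with the longest coding part; the longest transcript was tried after the data were seen.

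The genes to describe and the partner and marker lists were chosen with earlier results of these data known. Values were named for Riok3, members changed at least 2-fold, the member of highest FPKM in each class and members with known roles in bone. Of each partner list up to 4 genes of smallest p were named, with a few others beside them. The remaining members are given more briefly. Robo1, also listed for a role in bone, was not analysed here. Replicate numbers are those of the titles; deviations of same-numbered libraries correlated at −0.076, 0.044 and 0.052, so the numbers were not taken to pair the libraries. Replicates differed by more than counting noise.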

Additional observations from a re-analysis of the deposited data

How the results depend on the processing

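All 24 calls among guidance genes, 15 higher and 9 lower, kept their direction with DESeq2, RLE scaling, no filter, voom and without control replicate 2. The count of all called genes, 6266 in the edgeR test, was 9477 with voom, 4118 with the GC offset, and 3101 with the GC offset and replicate block; that of partner genes, 44, was 70, 21 and 18, and 18 with the longest transcript and 29 with GC content and length. Guidance genes called were 13 with the GC offset (7 higher), 11 with the longest transcript (6 higher, 5 lower), 14 with GC content and length (8 higher), and 10 with the GC offset and replicate block (5 higher, 5 lower). On log2(FPKM + 1) and log2(FPKM + 0.1) 15 were called, 4 of them lower, where 15 of the 24 called genes passed the filter on FPKM; without a filter 4 were lower, the cause of which was not tested. The replicate block alone left 22 of the 24 called. Leaving out 1 library at a time gave 16 to 33 guidance genes called (10 to 20 higher, 5 to 13 lower), 31 to 72 partner genes and 4340 to 9592 of all genes. The log2 fold change of Riok3 was −2.32 to −2.05 without 1 library, −1.20 with the GC offset, and −0.63, uncalled, with the longest transcript (edgeR adjusted p = 0.0974).

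Signs turned under at least 1 alternative for 9 of the guidance genes given in full, and also for Plxnd1 (−0.30 to 0.88), Plxna3 (−0.81 to 0.27), Sema4b (−0.01 to 0.96), Sema3g (−0.99 to 0.0045), Efna4 (−0.06 to 0.74), Efnb3 (−1.09 to 0.71), Ntn3 (−0.64 to 0.95) and Unc5c (−0.55 to 0.48). For the 9, with the GC offset, the longest transcript, GC content and length, and the GC offset with replicate block, in this order, Sema5a was at 0.42, 0.31, 0.78 and 0.45, Sema6c at −0.064, −0.067, −0.28 and −0.050, Plxna1 at −0.12, −0.14, −0.16 and −0.010, Epha2 at −0.30, −0.32, −0.37 and −0.24, Epha7 at 0.55, 0.36, 0.71 and 0.50, Ntn1 at −0.14, −0.16, −0.26 and −0.057, and Robo2 at 0.29, 0.34, 0.55 and 0.34. With the GC offset and without control replicate 2 they were 0.22 for Sema5a, −0.17 for Sema6c, −0.44 for Plxna1, −0.54 for Epha2, 0.53 for Epha7 and −0.47 for Ntn1. Nrp1 was at 0.35 with the longest transcript. Sema5a was at 0.0018 with library totals and 0.0057 on log2(FPKM + 1) without a filter. Efnb2 was at 0.13 with upper-quartile scaling, 0.15 with library totals, 0.19 on log2(FPKM + 1) with or without a filter, 0.24 on log2(FPKM + 0.1), and −0.35 to 0.090 without 1 library. The cause was not tested. Genes under about 20 counts per library, such as Sema3e and Robo2, are limited by depth.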
